A study of Mus musculus with 8 samples.

Results

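The FHL and PDLIM genes encode LIM-domain proteins, and 9 of them were followed in bulk RNA-seq of mouse brown adipose tissue (BAT): Fhl1, Fhl2, Fhl3, Pdlim1, Pdlim2, Pdlim3, Pdlim4, Pdlim5 and Pdlim7. The members were taken by symbol from the 31053 genes of the count table, and all 9 were found there. They were chosen by their values in the comparison of db/db with WT and by their relation to Acta1 in these same libraries, so those values are given as a description, with no test. BAT of 4 WT mice and 4 db/db mice was compared at 8 weeks of age. The labels give the strain C57BL6/J for both groups, while the study's methods name the db/db line B6.BKS(D)-Leprdb/J, so strain background may differ as well. WT mice carried no modified allele, and db/db mice carried the Leprdb mutation of the leptin receptor gene in every tissue, which makes them overeat and become obese and diabetic. According to the study's methods all mice were males on normal diet and their tissue was harvested after a fast. The methods name different suppliers for WT and db/db animals, while the study's key resources give the same supplier for both. Genotype and colony therefore cannot be told apart. Nothing stated that the samples were pooled. The 8 samples are taken as separate animals from their titles and from the study's figure legend, which gives 4 mice per group. Where they are not, the errors measure only the spread between samples.

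A LIM domain is a zinc-binding fold that binds other proteins. FHL proteins consist of LIM domains alone and act as scaffolds at the sarcomere, at focal adhesions and in the nucleus, where they bind transcription factors. PDLIM proteins carry a PDZ domain at one end, which binds alpha-actinin on actin filaments, and LIM domains at the other, which bind kinases and further partners. Several members are best known from the Z-disc of striated muscle, the plate that anchors the actin filaments of neighbouring sarcomeres, while others are found on actin stress fibres of many cell types. Acta1 encodes skeletal muscle alpha-actin, the main actin of that sarcomere.

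Total counts were 2374079 to 2615009 in WT and 2382722 to 3240074 in db/db, and a level of 3 counts, taken as the limit of detection, was 0.902 to 1.33 CPM, that is, counts scaled to a common library size. CPM are not divided by transcript length, so a level is compared between libraries and not between genes. No library held a count of Lepr, so that the mutated gene itself gave no check of the genotype labels. The labels name the stromal vascular fraction as cell type, yet the adipocyte gene Ucp1 reached 2248 ± 387 CPM in WT and 1429 ± 457 CPM in db/db (SD, n = 4 each), which goes against a preparation without adipocytes. One library stood apart. db/db replicate 1 differed from the other db/db libraries by 13.0 to 16.3 in chi-square over its degrees of freedom, against 6.41 to 8.60 among the others, and held the most Acta1. Fold changes of the members are therefore also given without it.

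Acta1 (ENSMUSG00000031972, mm10, chromosome 8, 123891769 to 123894751, minus strand) had 109.7, 283, 135 and 395 CPM in WT replicates 1 to 4 and 3977, 1063, 1788 and 813 CPM in db/db replicates 1 to 4. The 2 groups did not overlap, and within each group the highest library had more than 3 times the lowest. The log2 fold change of Acta1 was 3.05 ± 0.45 (SE; edgeR quasi-likelihood test, adjusted p = 6.79e-05), and 2.40 ± 0.32 without db/db replicate 1, a fold over 1.5 times smaller. An exon of Acta1 overlaps the gene model Gm20388, so its count is uncertain to that extent. In bulk tissue, more cells of a type and more RNA per cell cannot be told apart, and this holds for every value here.

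For the promoters, 250 bases before a RefSeq transcription start were read together with the 50 after it, in GRCm38.p6, the assembly that mm10 names. Of the 9 members 8 had such a window, with 11 windows in all, and Pdlim2 had none. The windows were searched for the CArG box, the DNA element that serum response factor binds. The part before the start is shown for Fhl1, Fhl3 and Acta1, because Fhl1 and Fhl3 had the highest Pearson r with Acta1 within the genotypes. They also differed most from each other between the genotypes. By Spearman correlation Pdlim5 and Pdlim4 came before Fhl3. Each stretch is written 5′ to 3′ on the strand of the gene and ends at the base before the start, with the CArG box in capitals. They lie at chrX:56779433-56779682 (Fhl1, plus strand), chrX:56786277-56786526 (Fhl1, a further start, plus strand), chr4:124700449-124700698 (Fhl3, plus strand) and chr8:123894776-123895025 (Acta1, minus strand).
Fhl1: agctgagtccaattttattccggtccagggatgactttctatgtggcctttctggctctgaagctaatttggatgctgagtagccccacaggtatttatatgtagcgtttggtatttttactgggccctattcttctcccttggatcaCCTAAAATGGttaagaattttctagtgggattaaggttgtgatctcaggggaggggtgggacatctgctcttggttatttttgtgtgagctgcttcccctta
Fhl1 further start: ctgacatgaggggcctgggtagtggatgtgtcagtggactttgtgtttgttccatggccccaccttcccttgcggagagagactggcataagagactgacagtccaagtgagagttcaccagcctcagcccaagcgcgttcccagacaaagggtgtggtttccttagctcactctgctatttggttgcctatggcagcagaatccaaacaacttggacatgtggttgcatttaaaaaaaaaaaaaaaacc
Fhl3: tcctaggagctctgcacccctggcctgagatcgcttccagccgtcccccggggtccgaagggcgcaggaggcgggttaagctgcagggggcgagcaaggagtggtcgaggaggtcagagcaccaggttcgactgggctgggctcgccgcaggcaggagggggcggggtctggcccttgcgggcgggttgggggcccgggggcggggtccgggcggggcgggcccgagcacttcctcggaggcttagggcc
Acta1: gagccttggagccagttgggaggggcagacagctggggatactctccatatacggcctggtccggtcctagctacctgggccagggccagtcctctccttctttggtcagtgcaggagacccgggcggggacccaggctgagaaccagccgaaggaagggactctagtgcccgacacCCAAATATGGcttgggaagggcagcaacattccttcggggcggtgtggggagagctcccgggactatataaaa

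The CArG box stood at -102 to -93 of the first Fhl1 start and at -73 to -64 of Acta1, counted from the start. No such letters were found in the window of the further Fhl1 start or in that of Fhl3. Both windows of Fhl2 held a CArG box, at -96 to -87 and at -31 to -22, and those of Pdlim1, Pdlim3, Pdlim4, Pdlim5 and Pdlim7 held none. Searched on both strands, the CArG box was found in 1.63% of all 32851 windows of 27025 genes. The letters CATTCC of the muscle MCAT element were in the windows of Pdlim3 and Acta1 and in 14.7% of all windows. The E-box CAGCTG, which myogenic factors can bind, was in the same windows of Pdlim3 and Acta1 and in 16.3% of all windows. It is 1 form of the general E-box CANNTG, which was in 72.3% of all windows and in those of Fhl1, Fhl2, Pdlim3 and Pdlim5. A MEF2 site, found in 3.19% of all windows, was in a window of Fhl2 alone among the members. A match describes the letters and is not a bound site, and counts per gene cannot say which start was used.

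Fhl1 (ENSMUSG00000023092, chromosome X, 56731787 to 56793346, plus strand) encodes an FHL protein abundant in skeletal muscle, whose human gene is mutated in X-linked myopathies. Its levels were 19.4, 30.0, 16.9 and 26.7 CPM in WT replicates 1 to 4. They were 390.5, 255, 287 and 209 CPM in db/db replicates 1 to 4. Every db/db library lay far above every WT library, and Fhl1 had the largest fold change of the tested members. The means were 23.3 ± 6.11 CPM in WT and 285 ± 77.0 CPM in db/db (SD, n = 4 each). The log2 fold change was 3.62 ± 0.22 (SE), and 3.42 ± 0.18 without db/db replicate 1. A small nuclear RNA gene model, Gm23258, lies in an intron of Fhl1 and touches none of its exons.

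Fhl2 (ENSMUSG00000008136, chromosome 1, 43123074 to 43196984, minus strand) encodes the member best known from the heart and as a transcriptional coactivator. It had 0 counts in all 4 WT libraries, and 1, 6, 0 and 0 counts in db/db replicates 1 to 4. Only db/db replicate 2 exceeded the limit of 3 counts, so no fold change is given, and a difference was not detectable at this depth.

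Fhl3 (ENSMUSG00000032643, chromosome 4, 124700701 to 124708611, plus strand) encodes the FHL protein found in skeletal muscle and at focal adhesions. Its levels were 11.7, 14.3, 9.02 and 16.6 CPM in WT replicates 1 to 4. In db/db replicates 1 to 4 they were 19.6, 7.95, 15.1 and 5.95 CPM. The groups overlapped fully, with the lowest and the highest library both in db/db, and the means were 12.9 ± 3.26 and 12.1 ± 6.31 CPM (SD, n = 4 each). The log2 fold change was -0.081 ± 0.34 (SE), and -0.45 ± 0.34 without db/db replicate 1. Its sign was not fixed, since it ran from -0.45 to 0.14 as single libraries were left out.

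**Figure D1:**
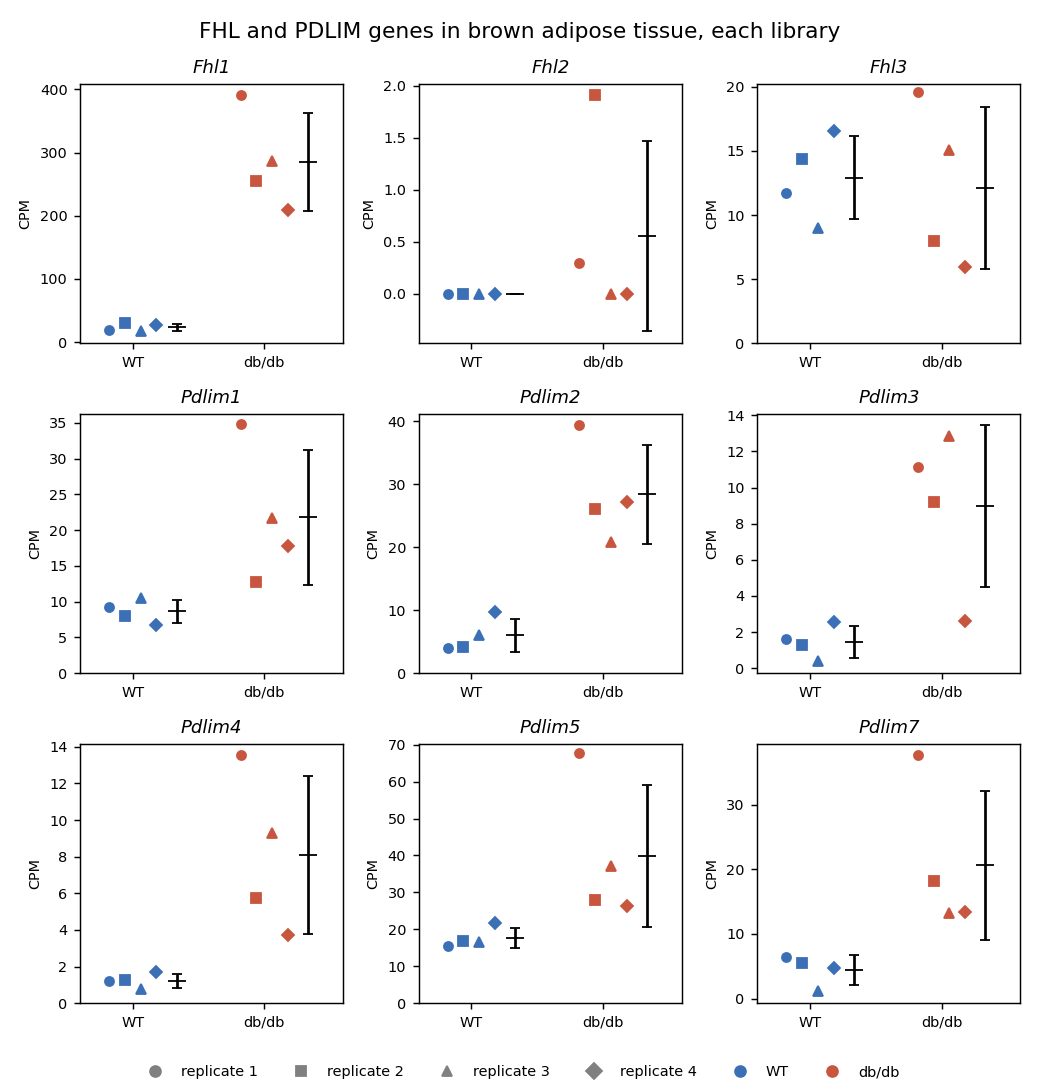
Level of each of the 9 genes in CPM (linear axis, its own scale for each gene) in the 4 WT libraries (blue) and the 4 db/db libraries (red), with the replicate number as the symbol and the mean ± SD as the black bar. In 7 of the 9 genes every db/db library lies above every WT library, whereas Fhl3 overlaps and Fhl2 is at or near 0.

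Pdlim1 to Pdlim4 form the ALP group of PDLIM genes, whose proteins join a PDZ domain to a single LIM domain and sit on alpha-actinin. Pdlim1 (ENSMUSG00000055044, chromosome 19, 40221173 to 40271842, minus strand) encodes the CLP36 protein of stress fibres and Z-discs. It had 9.31, 8.02, 10.5 and 6.79 CPM in WT and 34.9, 12.7, 21.7 and 17.9 CPM in db/db, in the order of the replicates. The groups did not overlap, though db/db replicate 2 stood only a little above WT replicate 3. The means were 8.66 ± 1.61 and 21.8 ± 9.48 CPM (SD, n = 4 each) and the log2 fold change was 1.33 ± 0.30 (SE), or 0.98 ± 0.28 without db/db replicate 1.

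Pdlim2 (ENSMUSG00000022090, chromosome 14, 70164218 to 70177681, minus strand) encodes a member known from epithelial and immune cells, where it promotes the breakdown of a subunit of NF-kB. It had 4.05, 4.22, 6.01 and 9.76 CPM in WT and 39.4, 26.1, 20.8 and 27.2 CPM in db/db. All db/db libraries lay well above the highest WT library, replicate 4. The means were 6.01 ± 2.65 and 28.4 ± 7.86 CPM (SD, n = 4 each), with a log2 fold change of 2.24 ± 0.29 (SE), or 2.03 ± 0.30 without db/db replicate 1.

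Pdlim3 (ENSMUSG00000031636, chromosome 8, 45885461 to 45919548, plus strand) encodes ALP itself, an alpha-actinin partner of muscle Z-discs. It had 4, 3, 1 and 6 counts in WT and 37, 29, 29 and 7 counts in db/db. In CPM this was 1.62, 1.27, 0.376 and 2.55 against 11.1, 9.23, 12.9 and 2.60, so that db/db replicate 4 all but met WT replicate 4. Pdlim4 (ENSMUSG00000020388, chromosome 11, 54054928 to 54069014, minus strand), which encodes RIL, an organiser of actin stress fibres, had 3, 3, 2 and 4 counts in WT and 45, 18, 21 and 10 counts in db/db. Its levels were 1.23 ± 0.387 and 8.07 ± 4.31 CPM (SD, n = 4 each), without overlap. WT values of both genes lay near the limit of detection and both were removed by the filter on low counts. With every gene that had a count kept, the log2 fold changes were 2.55 ± 0.50 for Pdlim3 and 2.63 ± 0.53 for Pdlim4 (SE).

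Pdlim5 and Pdlim7 belong to the Enigma group, whose proteins carry several LIM domains and bind protein kinases. Pdlim5 (ENSMUSG00000028273, chromosome 3, 142239590 to 142395696, minus strand) encodes ENH, which ties protein kinase C to the Z-disc. It had 15.4, 16.9, 16.5 and 21.6 CPM in WT and 67.7, 28.0, 37.2 and 26.4 CPM in db/db. The lowest db/db library, replicate 4, was close to the highest WT library, and replicate 1 stood far above all others. The means were 17.6 ± 2.77 and 39.8 ± 19.2 CPM (SD, n = 4 each) and the log2 fold change was 1.18 ± 0.27 (SE), or 0.78 ± 0.22 without db/db replicate 1, over 1.5 times smaller on the log2 scale.

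Pdlim7 (ENSMUSG00000021493, chromosome 13, 55495795 to 55513676, minus strand) encodes Enigma, a partner of receptor kinases and tropomyosin. It had 6.47, 5.49, 1.13 and 4.67 CPM in WT and 37.6, 18.1, 13.3 and 13.4 CPM in db/db. WT replicate 3 rested on 3 counts, and every db/db library was above every WT library. The means were 4.44 ± 2.33 and 20.6 ± 11.6 CPM (SD, n = 4 each), with a log2 fold change of 2.24 ± 0.42 (SE), or 1.76 ± 0.39 without db/db replicate 1. The microRNA gene Mir6945 overlaps an exon of Pdlim7, so its count is uncertain to that extent.

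Among the 6 members that passed the filter, 5 were past an adjusted p of 0.05 in edgeR, all of them higher in db/db, and Fhl3 was the exception. Over all 9264 genes tested, 27.7% were past the same threshold and 15.8% were past it and higher in db/db. The values of the groups did not overlap in 5 of these 6 members and in 7 of all 9, and in 28.1% of all genes tested. As the members were chosen on this comparison, nothing is read from these counts. A member could also pass the filter through its db/db libraries alone. DESeq2, which tested 8 of the 9, called 7, with Pdlim3 and Pdlim4 among them. Of all 12909 genes that it tested it called 2685, and nothing is read from its count of members either.

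The relation of each member to Acta1 was described on deviations of log2 CPM from the genotype mean, since the genotypes formed separate clusters, and with no test, since the members were chosen on this relation. Fhl1 followed Acta1 most closely, with a Pearson r of 0.93 (Spearman correlation 0.95) over 8 libraries. Fhl3 (r = 0.89, Spearman 0.86), Pdlim5 (r = 0.89, Spearman 0.90) and Pdlim4 (r = 0.86, Spearman 0.90) came next. In these 4 genes the db/db libraries had the same order as in Acta1, from replicate 1 through replicates 3 and 2 down to replicate 4, and in Pdlim5 the WT libraries had the order of Acta1 too. The other members were less close, with r = 0.64 for Pdlim3, 0.58 for Pdlim2, 0.52 for Pdlim7 and 0.38 for Pdlim1. Fhl2, at 0 counts in 6 of the 8 libraries, had r = -0.11, whose sign turned with 1 library, since leaving out db/db replicate 2 gave 0.64 and leaving out db/db replicate 4 gave -0.41. The order of the closest members was not fixed. Without WT replicate 1, Fhl3 and Pdlim4 (both r = 0.96) were closer than Fhl1 (0.93). With the mean log2 CPM of the sarcomere genes in place of Acta1, Pdlim5 (0.89) and Fhl3 (0.86) were closer than Fhl1 (0.85). The points share the library, its scaling and its depth.

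The slope says how steeply a gene followed Acta1 on the log2 scale, where 1 would be in proportion. It was 0.37 for Fhl1, 0.55 for Fhl3, 0.43 for Pdlim5 and 0.51 for Pdlim4, so within a genotype each changed less than Acta1 did. Leaving out the 2 libraries farthest in Acta1, WT replicate 4 and db/db replicate 1, gave r = 0.90 for Fhl1, 0.80 for Fhl3, 0.76 for Pdlim5 and 0.69 for Pdlim4. Pdlim3 was then at 0.53. Without these libraries r was 0.14 for Pdlim7, 0.033 for Pdlim1 and -0.50 for Pdlim2, so in these 3 genes the relation rested on them. For Pdlim1 it was db/db replicate 1 alone that set the sign, with r = -0.31 without it, while r was 0.64 without WT replicate 4. Pdlim7 was at r = 0.21 without db/db replicate 1 and at 0.83 without WT replicate 1. Pdlim2 was at 0.37 without db/db replicate 1 and at 0.38 without WT replicate 4.

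**Figure D2:**
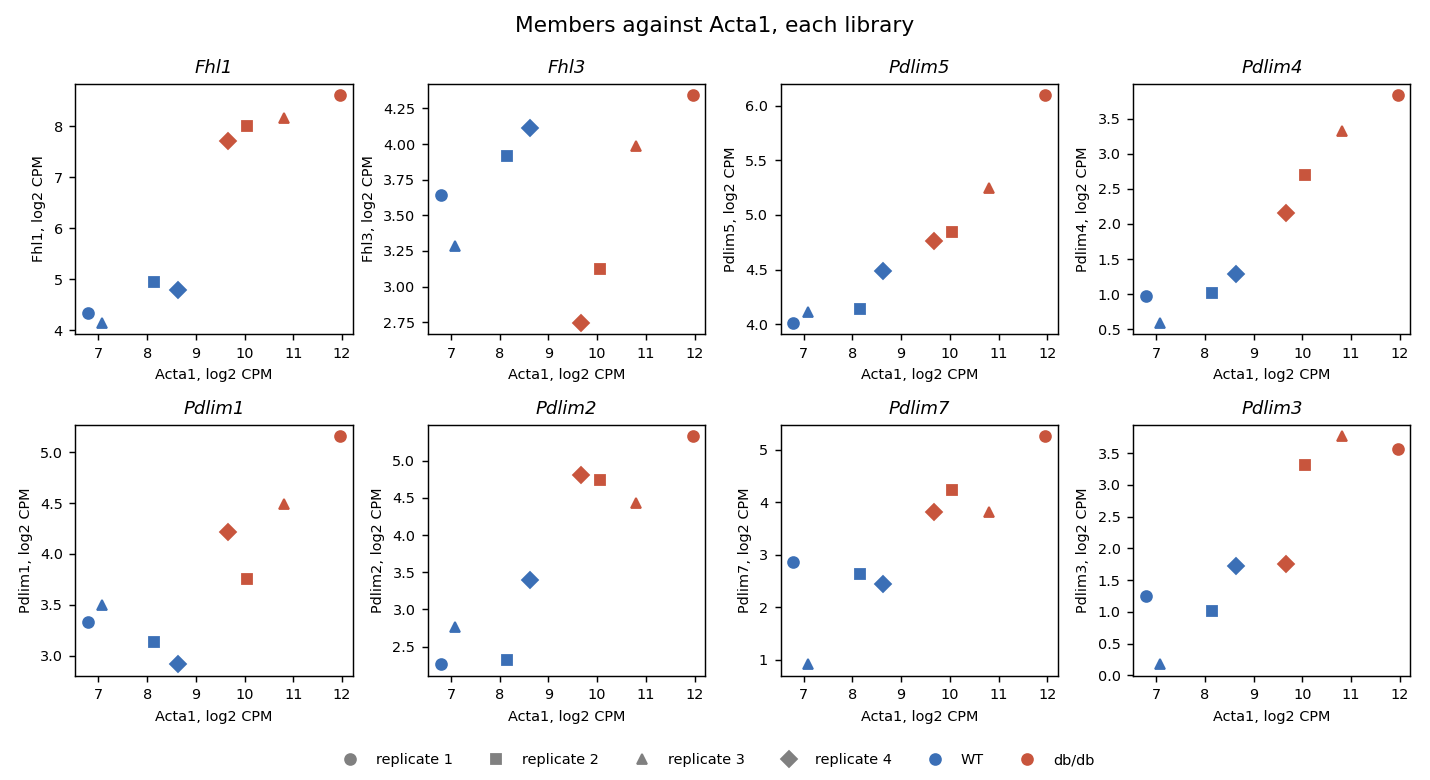
Each of 8 members (vertical axis, log2 CPM) against Acta1 (horizontal axis, log2 CPM) in the same library, with WT in blue, db/db in red and the replicate number as the symbol. Fhl1 forms a separate rising line in each genotype, Fhl3 a pair of rising lines of which that of db/db lies lower and to the right, and Pdlim5 and Pdlim4 come close to a single line. Fhl2 is left out because it had 0 counts in 6 libraries.

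Counts of the members relative to those of Acta1 in the same library were then set side by side. This share removes the library size but not transcript length, so it compares libraries and not genes. Fhl1 counts were 17.7%, 10.6%, 12.6% and 6.77% of Acta1 counts in WT replicates 1 to 4 and 9.82%, 24.0%, 16.0% and 25.7% in db/db replicates 1 to 4. The groups overlapped, with means of 11.9% ± 4.56 and 18.9% ± 7.37 (SD, n = 4 each). Fhl3 counts were 10.7%, 5.07%, 6.70% and 4.19% of Acta1 counts in WT and 0.492%, 0.749%, 0.843% and 0.732% in db/db. Here every db/db library lay below every WT library, and the means were 6.67% ± 2.89 and 0.704% ± 0.150. Pdlim5 was likewise lower relative to Acta1 in all db/db libraries, with 5.48% to 14.0% in WT and 1.70% to 3.25% in db/db. A gene that follows Acta1 less than in proportion loses share as Acta1 rises, within a genotype too. In WT the share of Pdlim5 was 14.0% in replicate 1 (110 CPM of Acta1) and 5.48% in replicate 4 (395 CPM). As Acta1 was higher in db/db, a lower share is by itself no genotype difference beyond that of Acta1.

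In the remaining tested members the shares overlapped. Pdlim1 spanned 1.72% to 8.49% in WT and 0.877% to 2.20% in db/db, Pdlim2 1.49% to 4.47% and 0.991% to 3.34%, and Pdlim7 0.838% to 5.90% and 0.744% to 1.71%. Pdlim3 (0.279% to 1.48% and 0.280% to 0.868%) and Pdlim4 (0.430% to 1.11% and 0.340% to 0.539%) rested on few WT counts and overlapped as well. Ldb3, the muscle-restricted relative of the Enigma group, stayed between 2.68% and 4.08% in WT and between 2.37% and 3.98% in db/db. Fhl1 was thus the only member whose mean share of Acta1 was higher in db/db among those with at least 3 counts in every library.

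**Figure D3:**
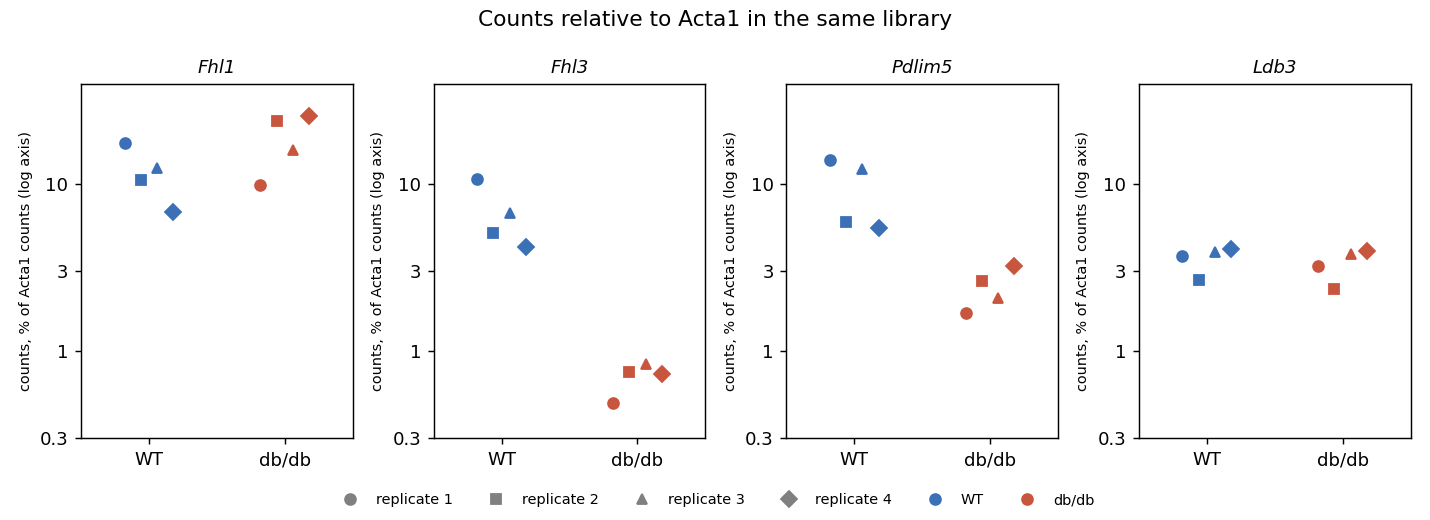
Counts of Fhl1, Fhl3, Pdlim5 and the relative Ldb3 as a percentage of Acta1 counts in the same library (log axis), for the 4 WT libraries (blue) and the 4 db/db libraries (red), with the replicate number as the symbol. Fhl3 and Pdlim5 lie lower in all db/db libraries, Fhl1 overlaps with a higher mean in db/db, and the ranges of Ldb3 in the 2 groups nearly coincide.

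With log2 CPM of Acta1 as a covariate in the edgeR fit, the genotype difference of Fhl1 was 2.51 ± 0.29 on the log2 scale (SE), against 3.62 without it. Pdlim2 went from 2.24 to 1.38 ± 0.52, Pdlim7 from 2.24 to 0.73 ± 0.71 and Pdlim1 from 1.33 to 0.43 ± 0.59. Single libraries moved these last values, that of Pdlim7 from 0.40 without WT replicate 4 to 1.63 without db/db replicate 1, and that of Pdlim1 from -0.17 to 1.24 without the same libraries, so that its sign was not fixed. Pdlim5 went from 1.18 to -0.31 ± 0.41, a value within its SE of 0 whose sign was not fixed, since it was 0.10 without db/db replicate 1 and ran down to -0.50 as other single libraries were left out. Fhl3 went from -0.081 to -1.86 ± 0.57. Of the 6 tested members 1 was past the adjusted threshold, beside 2.68% of all genes tested. Nothing is read from this count, since the members were chosen on the genotype comparison and on their relation to Acta1. Acta1 itself separated the genotypes, so the term can take up part of a genotype difference, and the errors of all 6 members were wider with it. Its removal of a call is no measure of how much of a difference goes with muscle.

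With the mean log2 CPM of 23 sarcomere genes in place of Acta1, which is among them, the differences were 2.82 ± 0.25 for Fhl1, 1.58 ± 0.42 for Pdlim2, 1.23 ± 0.62 for Pdlim7 and 0.64 ± 0.49 for Pdlim1. Pdlim5 was at 0.036 ± 0.34 and Fhl3 at -1.42 ± 0.49 (SE). Of the members 2 were past the threshold, beside 6.51% of all genes tested, and nothing is read from this count either. In both fits Fhl1 and Pdlim2 had the largest positive differences of the 6.

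**Figure D4:**
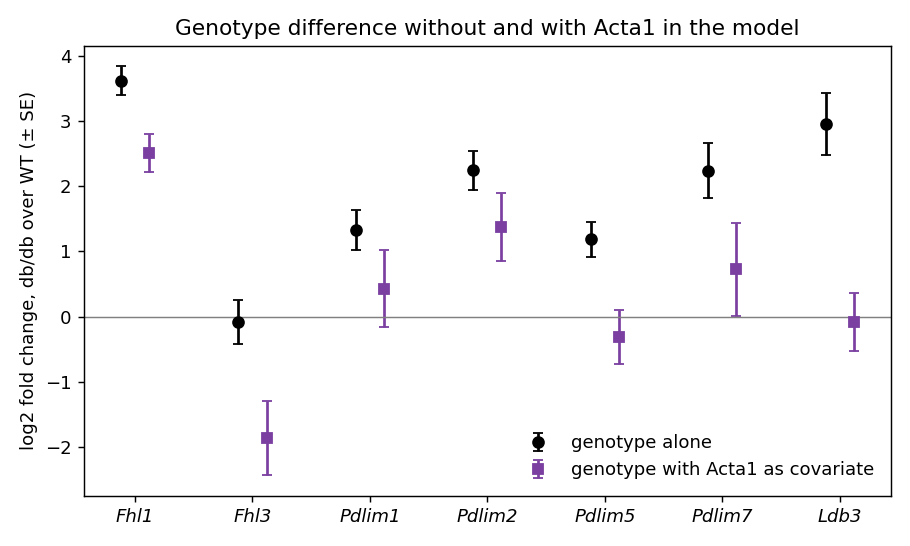
Log2 fold change of db/db over WT (± SE) of the 6 tested members and Ldb3, with genotype alone (black circles) and with Acta1 as a covariate (purple squares). Fhl1 moves from 3.62 to 2.51, Ldb3 from 2.96 to -0.081, and Fhl3 from -0.081 to -1.86.

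Among themselves, the 6 tested members varied together to different degrees within the genotypes. The r of their deviations over 8 libraries ran from 0.15 to 0.88 in 15 pairs, with a median of 0.51. The closest were Fhl1 with Fhl3 (0.88) and Fhl3 with Pdlim5 (0.87), while Pdlim2 with Pdlim7 (0.15), Pdlim1 with Pdlim2 (0.15) and Pdlim1 with Pdlim7 (0.19) were the least close. Fhl1, Fhl3 and Pdlim5 thus followed both Acta1 and each other, and Pdlim1, Pdlim2 and Pdlim7 stood apart from one another, though all 3 were higher in db/db.

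The genes whose deviations were most like those of each member were sought among 4528 genes with a mean of at least 20 CPM, over 8 libraries. With so few libraries a high r is met by unrelated genes too. Nearest to Fhl3 were Hspb6, a small heat shock protein gene (r = 0.99), Pygm, the glycogen phosphorylase gene of muscle (0.97), and Mapk9 (0.96). Nearest to Pdlim5 were Actn3, the alpha-actinin gene of fast muscle fibres (0.99), Tpm1, a tropomyosin gene (0.98), and Ap3m1 (0.96). Fhl1 had Usp4 (0.97), the noncoding RNA gene H19 (0.96) and Smndc1 (0.96), and Pdlim1 had Eif3l (0.97), Vcl, which encodes vinculin (0.92), and Eef1g (0.91). Pdlim2 had Rhoc, a small GTPase gene (0.99), and Pofut2 (0.97), and Pdlim7 had Fez2 (0.95), Aldh4a1 (0.95) and Cbx5 (0.91).

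Of these 17 genes, 8 were higher in db/db, 2 were lower and 7 did not pass an adjusted p of 0.05 in edgeR. Of all 9264 genes tested, 1466 were past it and higher and 1102 were past it and lower. H19 rose by 3.08 ± 0.51 on the log2 scale (SE; adjusted p = 2.25e-04). Hspb6 (2.05 ± 0.31, adjusted p = 8.61e-05) and Pygm (2.06 ± 0.40, adjusted p = 7.63e-04) rose as well, unlike Fhl3, which they followed within the genotypes. Aldh4a1 fell by 1.63 on the log2 scale (SE 0.18, adjusted p = 4.91e-06) although it followed Pdlim7, which was higher in db/db. A like pattern within the genotypes thus went with a difference in either direction between them, or with none that passed the test.

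Relatives and partners of the members were described from lists, by their counts and medians beside a median log2 fold change of 0.0066 over all 9264 genes tested. Of 3 further family members, Fhl4 had at most 4 counts in any library and Fhl5 had none, both known from testis. Ldb3 (ENSMUSG00000021798, chromosome 14, 34526603 to 34588682, minus strand), whose product Cypher holds the Z-disc together, had 4.05, 7.60, 5.26 and 16.1 CPM in WT and 129, 25.1, 67.8 and 32.4 CPM in db/db. Its groups did not overlap, and its rise was 2.96 ± 0.47 in log2 (SE) at an adjusted p of 1.58e-04 in edgeR. With Acta1 as a covariate its difference was -0.081 ± 0.45 (adjusted p = 0.965).

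Of 32 other LIM-domain genes, 29 were tested, 16 rose, 1 fell and 12 did not pass, with a median log2 fold change of 0.79. Without db/db replicate 1, 15 rose and none of the others passed the test. Csrp3, the muscle LIM protein of the Z-disc, rose by 4.13 ± 0.61 (SE, adjusted p = 7.72e-05) and Ajuba, an adaptor of cell junctions and Hippo signalling, by 2.34 ± 0.27. Crip2, a gene of vascular cells and heart, rose by 1.98 ± 0.17 and Lmcd1, a muscle coregulator, by 1.93 ± 0.39. The 1 gene that fell was Lpp, a focal adhesion protein (log2 fold change -0.50 ± 0.18, adjusted p = 0.0456). It was chosen after its value was seen. With Acta1 as a covariate 3 were past the threshold, Crip2, Lasp1 and Ajuba.

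All 17 tested genes of a list of 22 Z-disc and actin-anchoring partners rose, with a median of 2.70, and 16 of 17 without db/db replicate 1. Among them were Myoz2, a calsarcin of slow fibres (4.58 ± 0.57), Synpo2, which encodes myopodin (4.79 ± 0.29), Cryab, which encodes alpha-B-crystallin (4.73 ± 0.22), and Ankrd2, a stretch-responsive ankyrin gene (3.58 ± 0.50). Myoz3 had 0 counts in all libraries. With Acta1 as a covariate only Synpo2 (3.49 ± 0.41) and Cryab (3.64 ± 0.30) were past the threshold. The calls of the other 15 were not lost alike. Actn1 (1.59 ± 0.55), Actn4 (0.92 ± 0.30), Flna (1.32 ± 0.52) and Bag3 (0.97 ± 0.38) had about the same difference as without the covariate and a wider SE, while Actn2 (-0.19 ± 0.73), Actn3 (-1.46 ± 0.49), Tcap (-0.37 ± 0.42) and Des (-0.81 ± 0.43) were below 0. These genes were named after their values were seen. The alpha-actinins, to which PDLIM proteins bind, rose by 1.63 ± 0.26 for Actn1, 2.70 ± 0.57 for Actn2, 1.64 ± 0.46 for Actn3 and 0.92 ± 0.14 for Actn4 with genotype alone.

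**Figure D5:**
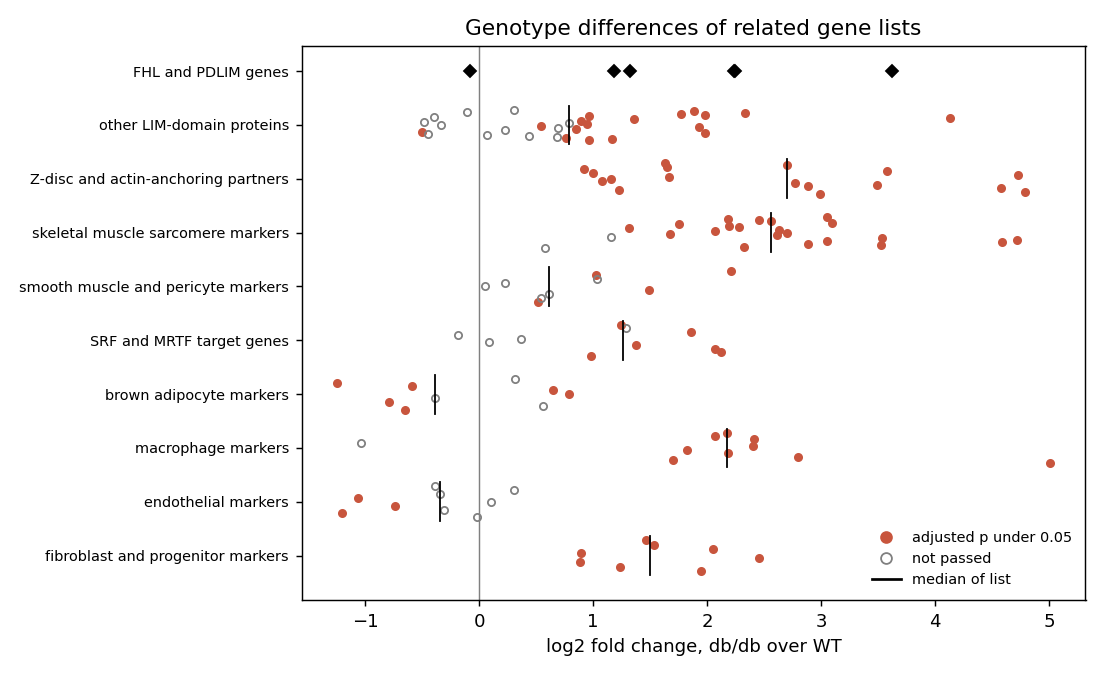
Log2 fold change of db/db over WT (horizontal axis) for the tested FHL and PDLIM genes (black diamonds, no test) and for the tested genes of 9 lists, filled where past an adjusted p of 0.05 in edgeR and open where not, with the median of each list as a bar. The Z-disc and sarcomere lists have medians of 2.70 and 2.56, and the smooth muscle list one of 0.61.

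Markers of other cells moved beside the members. Of 24 skeletal muscle sarcomere genes 23 were tested and 21 rose, with a median of 2.56. Their summed level was 526 to 1950 CPM in WT and 2562 to 13206 CPM in db/db, and none was at 0 in all libraries. Tnnc1 (4.72 ± 0.64), Tnni1 (4.59 ± 0.58) and Tnnt1 (3.53 ± 0.51), the troponin genes of slow fibres, and Smpx (3.53 ± 0.58) rose most by the rule for named genes. Without db/db replicate 1, 18 of 23 rose. With Acta1 as a covariate 4 were lower in db/db, Ttn, Neb, Myh4 and Ryr1, named for this count after their values were seen, and the other 19 did not pass. Acta1 is itself among these 19, so its own result was fixed by the fit. The part of the sarcomere genes in the values of the members was not tested.

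Of 11 smooth muscle and pericyte genes 9 were tested and 4 rose, with a median of 0.61 and summed levels of 255 to 331 CPM in WT and 487 to 648 CPM in db/db. Acta2, the smooth muscle actin gene, rose by 2.21 ± 0.27 and Mylk, myosin light chain kinase, by 1.49 ± 0.16, while Rgs5 (0.51 ± 0.13) and Cspg4 (1.02 ± 0.35) rose less. Of 13 target genes of serum response factor and its coactivators of the MRTF family, 10 were tested and 6 rose, with a median of 1.27. They included the tropomyosin genes Tpm1 (2.07 ± 0.31) and Tpm4 (2.12 ± 0.34), Cnn2, a calponin gene (1.86 ± 0.39), and Tagln2 (1.37 ± 0.23). Srf itself was at 35.4 ± 13.4 CPM in WT and 37.6 ± 10.1 CPM in db/db (SD, n = 4 each, adjusted p = 0.841). It too was added after its value was seen.

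All 8 fibroblast and progenitor genes rose (median 1.50), and 6 of 8 did so without db/db replicate 1. Their summed level was 623 to 788 CPM in WT and 1264 to 2726 CPM in db/db. Dpt, a matrix gene, rose by 2.45 ± 0.21 and the collagen gene Col3a1 by 2.06 ± 0.23, beside Pi16 (1.95 ± 0.40) and Col1a2 (1.54 ± 0.23). Of 10 macrophage genes 9 rose, with or without db/db replicate 1 (median 2.18), and their summed level went from 151 to 196 CPM in WT to between 686 and 1233 CPM in db/db. Lyz2, which encodes lysozyme, rose by 2.79 ± 0.20, Cd68 by 2.41 ± 0.27, the complement gene C1qb by 2.41 ± 0.26 and Itgam by 2.18 ± 0.51. The part of these cells in the values of the members was not tested.

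Genes of the brown adipocyte list, which also holds genes of adipocytes in general, went both ways. The endothelial markers that passed the test fell. Of 10 brown adipocyte genes 9 were tested, of which 2 rose and 4 fell, with a median of -0.39 and summed levels of 13966 to 19928 CPM in WT and 15935 to 21384 CPM in db/db. The log2 fold changes (± SE) were -1.24 ± 0.17 for Cidea, a lipid droplet gene, -0.79 ± 0.23 for Ppargc1a, a coactivator of mitochondrial genes, and -0.65 ± 0.19 for Ucp1, the uncoupling protein of thermogenesis. The lipid droplet gene Plin1 was at 0.79 ± 0.15. The other gene that rose was Fabp4 (0.65 ± 0.21) and the other that fell was Ebf2 (-0.59 ± 0.18), both named after their values were seen. Plin1 and Fabp4, the 2 that rose, are genes of adipocytes in general, and the 4 that fell were Cidea, Ppargc1a, Ucp1 and Ebf2. Fabp4 was the largest part of the summed level, with means of 7789 CPM in WT and 12193 CPM in db/db. Of 10 endothelial genes 9 were tested and 3 fell, with log2 fold changes of -1.20 ± 0.37 for Tek, -1.06 ± 0.29 for Emcn and -0.74 ± 0.15 for Kdr (SE), and with a median of -0.35 and summed levels of 438 to 500 CPM in WT and 329 to 398 CPM in db/db.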

How the data were processed

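BAT of 4 WT and 4 db/db mice was profiled by single-end mRNA sequencing through a commercial service. According to the study's methods the authors used bbduk for trimming, STAR for alignment to mm10 and HTSeq-count for counting per gene, and they deposited raw counts. The submitters' processing notes name Trimmomatic, HISAT2 and DESeq2. The study's methods name DESeq2 too, and its key resources list Trimmomatic and HISAT2, so the trimmer and aligner behind these counts are not settled. Strand use, collapsing of molecular identifiers and the annotation release are not given in the sources used here, so counts may include PCR copies, and the limit of detection covers counting error only. The authors' log2 normalized table and the sample sheet were not used here.

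Of 31053 genes, 30934 were matched by Ensembl identifier to GENCODE symbols on mm10. Genes were filtered with filterByExpr (minimum count 10, minimum total 15), which left 9264, scaled by TMM and tested in edgeR 4.0.16 (R 4.3.3) by its quasi-likelihood F test. Genotype was the single term, and p-values were adjusted by Benjamini-Hochberg over all 9264 at 0.05. SEs were derived from the F statistic. CPM are counts over the library size of the filtered genes times the TMM factor, and log2 CPM used a prior count of 2. Alternatives were DESeq2 1.42.0, limma-voom (limma 3.58.1), other scalings and filters, Acta1 or a sarcomere score as a covariate, a block for the replicate number, and fits with libraries left out. Groups and replicate numbers were taken from the sample titles. Figures were drawn with matplotlib 3.10.9.

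The members and gene lists were chosen with earlier results of these data known. Named genes were all members and relatives, Acta1, in each list the 4 largest changes past the threshold with a mean of at least 5 CPM, and the 3 most like genes of each tested member, of which 1 is not reported here. Promoter windows came from RefSeq on GRCm38.p6. Replicates of a genotype differed by more than counting error, each pair by 4.20 or more in chi-square over its degrees of freedom.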

Additional observations from a re-analysis of the deposited data

Results flagged for a closer look

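In Fhl2, db/db replicate 2 stood at 1.91 CPM (6 counts), while the other db/db libraries lay between 0 and 0.301 CPM. Its gap to the nearest library was 0.842 of the range of the group, above Dixon's 95% critical value for 4 samples. Of 17 groups of 4 libraries examined, 1 was singled out in this way, and chance gives 0.85. db/db replicate 2 was not the highest db/db library in any other member or in Acta1. The cause was not tested.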

How the results depend on the processing

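Under DESeq2, limma-voom, other scalings and other filters on low counts, 4 to 7 members passed. The 4 came with at least 10 counts in every library, a filter that left Pdlim7 untested, and the 7 with Pdlim3 and Pdlim4 tested as well. Of all genes tested, 2685 of 12909 passed under DESeq2, and 2538 of 9264 under limma-voom. With RLE scaling 2591 of 9264 passed and with no scaling factor 2500 of 9264. With at least 10 counts in every library 2018 of 7333 passed, and with every gene that had a count 3170 of 16410. The counts depended on the covariate. With Acta1 as a covariate 248 of all genes passed and with the sarcomere score 603, against 2568, and of the members 1 and 2 passed, against 5, from which nothing is read. The difference of Pdlim5 was then -0.31 and that of Ldb3 -0.081 with Acta1, both smaller than their SEs, and that of Pdlim5 ran from -0.50 to 0.10 as single libraries were left out. With Acta1 and with the score, respectively, 3 and 6 of the other LIM-domain genes passed (17 without a covariate), 2 and 5 Z-disc genes (17), 4 and 7 sarcomere genes (21), 0 and 2 smooth muscle genes (4), 0 and 3 target genes of serum response factor (6), 0 and 0 brown adipocyte genes (6), 0 and 1 endothelial genes (3) and 2 and 2 fibroblast genes (8), and with Acta1 5 macrophage genes (9). Where edgeR called 0 with Acta1, an unadjusted p under 0.05 was met by 2 smooth muscle, 5 serum response factor target, 2 brown adipocyte and 2 endothelial genes, and with the score by 3 brown adipocyte genes. Acta1 is among the sarcomere genes and the score is their mean, so the counts and median of that list are not independent of the covariate. A lost call was not always a smaller difference. With Acta1 the median log2 fold change was 0.69 in the other LIM-domain genes (0.79 without a covariate), 2.03 in macrophage genes (2.18), 0.42 in smooth muscle genes (0.61), 0.82 in the target genes (1.27), -0.45 in endothelial genes (-0.35), 1.02 in fibroblast genes (1.50), 0.86 in Z-disc genes (2.70) and -0.37 in sarcomere genes (2.56), and that of brown adipocyte genes turned from -0.39 to 0.22. With at least 10 counts in every library, which tests fewer genes, 10 other LIM-domain, 10 Z-disc, 12 sarcomere and 5 macrophage genes passed.

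As single libraries were left out, 2236 to 2483 of all genes and 5 to 7 members passed. The lists gave 13 to 17 other LIM-domain, 16 to 17 Z-disc, 18 to 23 sarcomere, 3 to 5 smooth muscle, 6 to 8 serum response factor target, 3 to 6 brown adipocyte, 9 to 10 macrophage, 2 to 4 endothelial and 6 to 8 fibroblast genes. Without WT replicate 4 the brown adipocyte genes fell from 6 to 3. With the Acta1 covariate 1 member passed whichever library was left out, and the difference of Pdlim1 ran from -0.17 without WT replicate 4 to 1.24 without db/db replicate 1, and that of Pdlim7 from 0.40 to 1.63 without the same libraries. The number of members with a positive r to Acta1 was 7 to 9 of 9.

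Same-numbered libraries deviated from their group means with r of 0.038, 0.049, -0.078 and -0.014. These values show no pairing by replicate number, but they do not settle whether such samples were handled together. Adding a replicate block, 2557 genes and 5 members passed, and 18 sarcomere genes, and with Acta1 as a covariate 1 member passed. With the block, r to Acta1 was higher in every member but Fhl2, as in Pdlim7 (0.81, against 0.52) and Pdlim1 (0.58, against 0.38). Leaving out the 2 libraries farthest in Acta1 was chosen after seeing the data and left 7 members with a positive r. Depth limits Pdlim3 and Pdlim4, with 1 to 6 counts in the WT libraries, and Fhl2, with 0 in each of them.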
